A study of Mus musculus with 8 samples.

Results

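Interferon-induced genes and the GTPases induced by interferon gamma were examined in mouse liver with and without Dicer1 in hepatocytes, after N-ethyl-N-nitrosourea (ENU), a mutagen that alkylates DNA, or its vehicle. Members were chosen by name, as all probes of an array whose gene name, current or older, was 1 of 44 named interferon genes. The rule uses names and no measured value, but the list of names was drawn up with earlier results of these data known. Of the 44 names, 43 had a probe, which gave 44 genes on 67 probes among 41174 probes that were not controls. Xaf1 had no probe, and the file name Ifi27 stood for probes of a second gene, now called Ifi27l2a. Oas1g was not well above background on both arrays of any group, so 43 of 18122 genes tested were members. Of these, 9 were GTPases, 2 the ligand interferon gamma and a chain of its receptor, 6 transcription factors, 3 sensors of RNA and 23 effectors induced by type I interferon.

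The samples were livers of 6-month-old C57BL/6 mice in 4 groups. KO ENU mice carried the Albumin-Cre transgene and 2 floxed Dicer1 alleles (Albumin-Cre;Dicer1loxP/loxP) and received ENU once at 120 mg/kg. WT ENU mice were littermates with the floxed alleles and no Cre (Dicer1loxP/loxP), given the same dose. KO vehicle and WT vehicle mice had those genotypes and received dimethylsulfoxide (DMSO), and the injected volume was 2 ml/kg in all groups. ENU mice were measured after 15 days. The day is not given for vehicle mice. Because the albumin promoter drives Cre in hepatocytes, other liver cells should keep Dicer1, and Cre and loss of Dicer1 cannot be told apart, since both were present in KO and absent in WT. The number of mice behind an RNA sample is not given in the labels.

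Interferons are secreted proteins that switch on antiviral genes. Type I interferons act through a complex with Stat2 and Irf9 that binds the interferon-stimulated response element (ISRE), while many genes induced by interferon gamma carry the gamma-activated sequence (GAS). Immunity-related GTPases and guanylate-binding proteins are cell-autonomous defence proteins of mice that gather on the vacuoles of intracellular pathogens. In liver, hepatocytes as well as resident and recruited immune cells respond to interferon.

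Each group had 2 arrays, a and b, which were counted as 1 RNA sample. Over 156 to 181 probes spotted at least 5 times, the median absolute standardised difference between a and b was 0.602 to 0.830, against 11.5 to 27.9 between arrays of different groups. With spots permuted it was 0.695 to 0.699, with a one-sided permutation p of 0.24 to 0.96 in 3 groups and 0.018 in KO vehicle. A comparison of 1 group with another is therefore 1 RNA sample against 1 and has no test, and its size is given as higher or lower. The words rose and fell are kept for limma on the 4 RNA samples, in a model of genotype plus treatment, at an adjusted p under 0.05. These p-values measure only the spread between these samples, and a response that differs between genotypes enters that spread. The ENU arrays shared 1 slide and the vehicle arrays a second one, so an effect of slide cannot be told apart from one of ENU. KO arrays were at positions 1 and 2 and WT arrays at positions 3 and 4 of each slide, so array position and genotype are confounded in the same way. The probe that read Dicer1 lowest was 5.51-fold lower in KO than in WT on vehicle and 2.85-fold lower after ENU, and another was 1.41-fold lower on vehicle and 1.19-fold lower after ENU. The mice are labelled female, yet 4 of 4 Y-linked genes looked for were well above background on all 8 arrays. Alb, Ttr, Apoa1, Tat and Cps1, markers of hepatocytes, were measured in every group.

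Interferon-induced genes were mostly higher in KO than in WT liver. Over the 4 RNA samples 14 of the 43 members rose in KO and 1 fell, where 16.9% of all genes tested rose and 15.3% fell. The members' median difference was 0.88 log2 on vehicle and 0.48 after ENU, against -0.14 and -0.10 over all genes tested. With each array centred on its median instead, the median of all genes lay at -0.33 over both treatments in place of -0.12, members then counted 14 that rose and 3 that fell, and of all calls 35.9% in place of 52.5% were higher in KO. On vehicle, 20 members were at least 2-fold higher in KO and 0 at least 2-fold lower, against 17.3% and 11.1% of all genes. After ENU, 11 were at least 2-fold higher and 2 at least 2-fold lower, against 16.3% and 14.2%. The 9 members at least 2-fold higher in both pairs were Gbp2, Ifngr1, Irf8, Ifi27l2a, Ifit2, Oas1a, Oas3, Oasl2 and Usp18.

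Markers of neutrophils, monocytes and bile duct epithelium were higher in KO as well, and so were some markers of other immune cells. The part of these cells in the members' differences was not tested. In bulk liver, more cells of a type and more RNA per cell cannot be told apart. Of the 8 neutrophil markers tested 8 rose, and their summed relative signal was 49.2 to 49.7 in KO ENU and 7.04 to 7.19 in WT ENU, and 35.5 to 36.0 in KO vehicle and 4.56 to 4.57 in WT vehicle. All 5 monocyte markers tested rose, with sums of 15.5 to 15.9 in KO ENU, 4.45 to 4.67 in WT ENU, 8.31 to 8.34 in KO vehicle and 2.39 to 2.50 in WT vehicle. Of the 9 macrophage markers 5 rose and 0 fell, of 6 T cell markers 4 rose and 2 fell, of 5 NK cell markers 1 rose, of 5 B cell markers 1 rose, and of 5 plasmacytoid dendritic cell markers 3 rose. Over all genes tested 16.9% rose and 15.3% fell, and the NK cell and B cell counts are near that share. In the plasmacytoid list Siglech was not well above background in any group, and in the NK cell list neither Ncr1 nor Klrk1 was. All 6 cholangiocyte markers rose, 2 of 6 stellate cell markers rose, 1 of 6 endothelial markers fell, and of 5 hepatocyte markers 3 fell. Among the markers that rose, Elane, Ngp, Camp, Itgam and Epcam were well above background on both arrays in the KO groups only. They entered the test through the groups where they were high, so their rise adds no separate evidence to these counts.

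**Figure D1:**
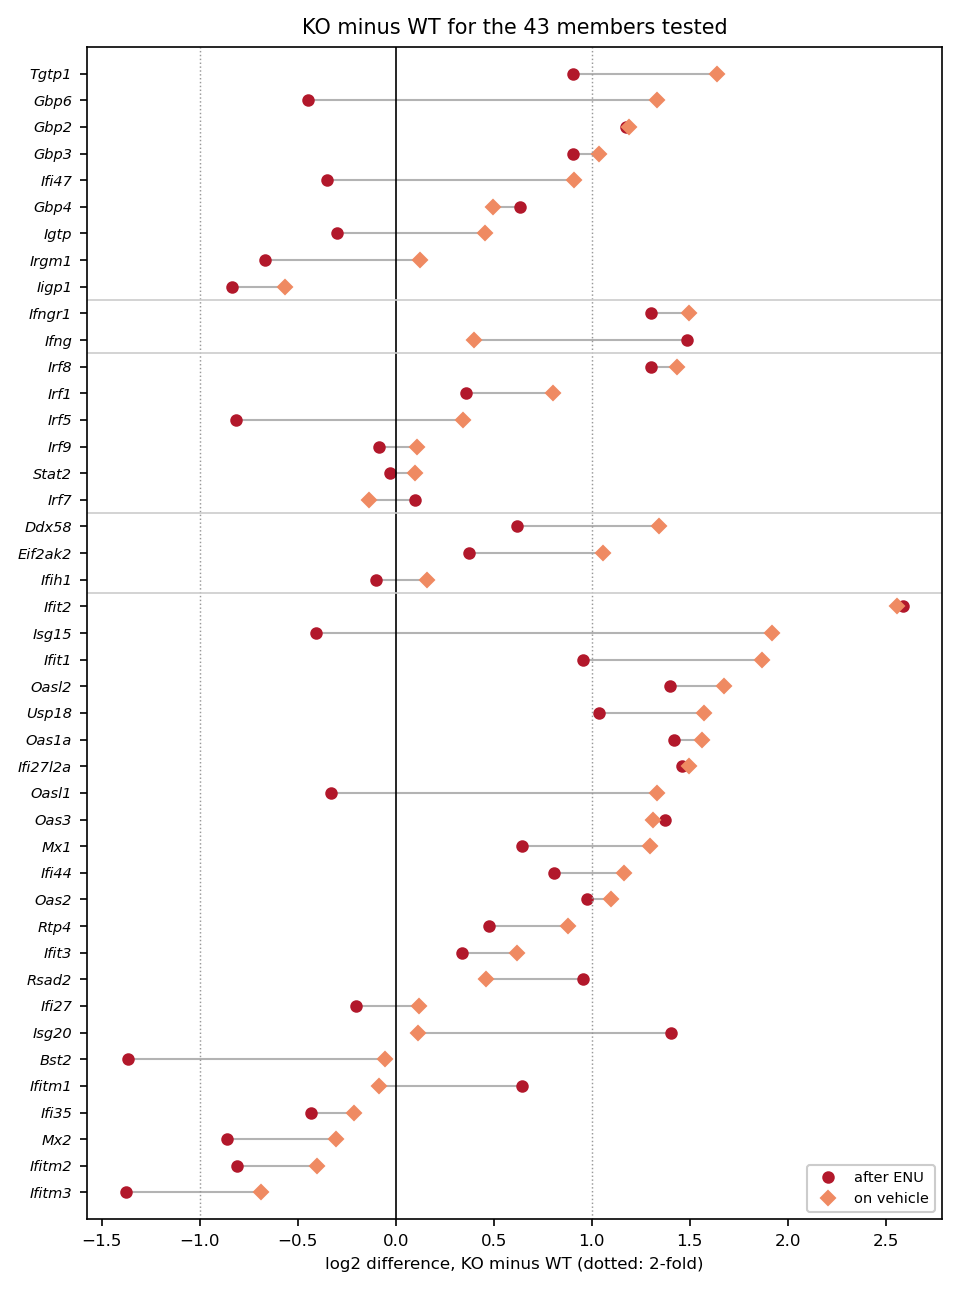
Log2 difference of KO minus WT for the 43 members tested, after ENU (circles) and on vehicle (diamonds), each 1 RNA sample against 1; blocks from the top are GTPases, ligand and receptor, transcription factors, RNA sensors and effectors, and dotted lines mark 2-fold. Most effectors lie right of 0 in both pairs, while among the GTPases Ifi47, Gbp6, Igtp and Irgm1 lie right of 0 on vehicle and left of 0 after ENU.

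Among the GTPases, 3 of 9 rose in KO and 0 fell, where 16.9% of all genes tested rose and 15.3% fell. The 3 that rose were Tgtp1, an effector of the immunity-related family, and the guanylate-binding proteins Gbp2 and Gbp3. Levels are given as relative signal, the signal of the gene's brightest probe divided by the array's 75th percentile, on arrays a and b. Gbp2 read 4.71 and 4.59 in KO ENU, 2.07 and 2.06 in WT ENU, 1.64 and 1.63 in KO vehicle and 0.767 and 0.669 in WT vehicle. Both KO samples lay above the WT sample of the same treatment, 2.25-fold after ENU and 2.28-fold on vehicle, and no arrays overlapped. It rose by 1.18 ± 0.181 log2 (SE, limma adjusted p = 0.0212). Gbp3 read 3.42 and 3.47 in KO ENU, 1.82 and 1.86 in WT ENU, 2.09 and 2.11 in KO vehicle and 1.05 and 1.0 in WT vehicle. It was higher in KO by 1.87-fold after ENU and by 2.05-fold on vehicle, and it rose by 0.97 ± 0.184 log2 (SE, limma adjusted p = 0.0301). Tgtp1 read 9.57 and 9.19 in KO ENU, 5.02 and 5.02 in WT ENU, 3.05 and 3.19 in KO vehicle and 1.01 and 0.983 in WT vehicle, with all KO arrays above the WT arrays of the same treatment. It rose by 1.27 ± 0.260 log2 (SE, limma adjusted p = 0.0348), but its other probe, also well above background on all 8 arrays, was 0.94 log2 higher after ENU and 0.19 higher on vehicle, against 0.90 after ENU and 1.64 on vehicle for the probe used. The gene has a near-identical copy, Tgtp2, which the probes may also read.

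The remaining GTPases did not pass the test between genotypes. Ifi47 and Gbp6 were higher in KO on vehicle, by 1.88-fold and 2.52-fold, and lower in KO after ENU, by 1.27-fold and 1.36-fold. Igtp and Irgm1, which regulate the other GTPases of the family, showed the same pattern at smaller sizes, with KO minus WT of 0.46 and 0.12 log2 on vehicle and -0.30 and -0.67 after ENU. The after-ENU direction depended on scaling for Ifi47 and Igtp, which read 0.08 and 0.28 with quantile normalization, while Gbp6 at -0.32 and Irgm1 at -0.31 were still lower. With median centring Irgm1 read -0.10 on vehicle. The median GTPase difference after ENU was -0.30, and 0.28 with quantile normalization. Iigp1, an effector GTPase, was 1.78-fold lower in KO after ENU and 1.48-fold lower on vehicle (limma adjusted p = 0.0626). With quantile normalization its vehicle difference was 0.10 log2 in place of -0.56. Gbp4 read 0.406 and 0.398 in KO ENU, 0.254 and 0.265 in WT ENU, 0.180 and 0.180 in KO vehicle and 0.126 and 0.129 in WT vehicle, 1.55-fold higher in KO after ENU and 1.41-fold higher on vehicle, and did not pass (limma adjusted p = 0.0865).

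The receptor chain Ifngr1, which binds interferon gamma, was higher in KO under both treatments. It read 11.6 and 11.5 in KO ENU, 4.58 and 4.79 in WT ENU, 11.9 and 11.8 in KO vehicle and 4.24 and 4.17 in WT vehicle. The KO arrays all lay above the WT arrays, 2.47-fold after ENU and 2.82-fold on vehicle, and it rose by 1.40 ± 0.187 log2 (SE, limma adjusted p = 0.0174). The ligand gene Ifng was dim, at 0.209 and 0.0994 in KO ENU, 0.0469 and 0.0563 in WT ENU, 0.0544 and 0.0722 in KO vehicle and 0.0204 and 0.111 in WT vehicle. The probe used was well above background on both arrays of each KO group and on 1 of 2 arrays of each WT group, and its other probe on 2 of 8 arrays. The KO and WT arrays were apart after ENU and overlapped on vehicle, and the difference of 0.94 ± 0.329 log2 did not pass (limma adjusted p = 0.0988). Without array b of WT vehicle that difference was 1.55 log2, with a limma adjusted p of 0.0179.

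Of 6 transcription factors 1 rose in KO, which is near the 16.9% of all genes tested that rose. It was Irf8, which directs the development of myeloid cells. Irf8 read 4.94 and 4.78 in KO ENU, 1.89 and 2.06 in WT ENU, 4.80 and 4.73 in KO vehicle and 1.74 and 1.78 in WT vehicle. It was higher in KO by 2.46-fold after ENU and by 2.71-fold on vehicle, and rose by 1.37 ± 0.184 log2 (SE, limma adjusted p = 0.0175). Its other probe was 1.19 log2 higher in KO after ENU and 1.0 higher on vehicle. The monocyte and neutrophil markers given above were higher in the same samples. Irf1, a factor induced by interferon gamma, read 14.1 and 14.3 in KO ENU, 11.1 and 11.1 in WT ENU, 14.0 and 13.4 in KO vehicle and 8.06 and 7.68 in WT vehicle, so KO lay above WT in both pairs, by 1.28-fold after ENU and 1.74-fold on vehicle. That difference did not pass (limma adjusted p = 0.109). Irf5, an activator of inflammatory genes, read 1.78 and 1.47 in KO ENU, 2.86 and 2.83 in WT ENU, 1.57 and 1.64 in KO vehicle and 1.48 and 1.08 in WT vehicle, and KO was 1.76-fold lower after ENU and 1.27-fold higher on vehicle. Irf7, which drives production of type I interferon, read 1.44 and 1.42 in KO ENU, 1.32 and 1.34 in WT ENU, 0.734 and 0.717 in KO vehicle and 0.775 and 0.822 in WT vehicle, with KO within 1.10-fold of WT in both pairs.

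Stat2 and Irf9, which act in 1 complex in the type I pathway, barely differed between genotypes. Stat2 read 4.73 and 4.83 in KO ENU, 4.76 and 5.02 in WT ENU, 5.30 and 5.31 in KO vehicle and 4.79 and 5.12 in WT vehicle. Irf9 read 3.17 and 3.19 in KO ENU, 3.30 and 3.45 in WT ENU, 3.53 and 3.43 in KO vehicle and 3.26 and 3.19 in WT vehicle. KO minus WT was 0.03 ± 0.184 log2 for Stat2 and 0.01 ± 0.187 log2 for Irf9 (SE). A second, dimmer Irf9 probe, well above background on 7 of 8 arrays, gave KO minus WT of -0.52 log2 after ENU and -0.36 on vehicle.

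None of the 3 RNA sensors passed the test between genotypes. The unadjusted limma p was under 0.05 for 2 of 3, against 8769 of all 18122 genes tested. Ddx58, which encodes the viral RNA sensor RIG-I, was higher in KO by 1.53-fold after ENU and by 2.54-fold on vehicle (limma adjusted p = 0.0567). Its other probes gave KO minus WT of 0.19, 0.52 and -0.07 log2 after ENU, and 1.31, 1.62 and 1.27 on vehicle. The after-ENU difference thus depended on the probe. Eif2ak2, the kinase PKR that halts translation upon binding double-stranded RNA, was 1.30-fold higher after ENU and 2.08-fold higher on vehicle (limma adjusted p = 0.0986). Ifih1, the sensor MDA5, stayed within 1.12-fold of WT in both pairs.

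Of 23 effectors 9 rose in KO and 1 fell, where 16.9% of all genes tested rose and 15.3% fell. Ifit2, a protein of the family that binds viral RNA, had the largest rise among members. It read 1.80 and 1.71 in KO ENU, 0.294 and 0.289 in WT ENU, 1.04 and 1.10 in KO vehicle and 0.176 and 0.187 in WT vehicle. KO was 6.01-fold higher after ENU and 5.89-fold higher on vehicle, and Ifit2 rose by 2.57 ± 0.181 log2 (SE, limma adjusted p = 0.00987). Its second probe was 2.19 log2 higher in KO after ENU and 2.72 higher on vehicle. Ifit1, of the same family, read 2.16 and 2.21 in KO ENU, 1.27 and 1.0 in WT ENU, 1.52 and 1.50 in KO vehicle and 0.386 and 0.445 in WT vehicle. It was higher in KO by 1.94-fold after ENU and by 3.65-fold on vehicle, and rose by 1.41 ± 0.293 log2 (SE, limma adjusted p = 0.0359). Without array b of WT ENU that call was lost (limma adjusted p = 0.0609). Ifit3 differed by 0.48 ± 0.194 log2 and did not pass (SE, limma adjusted p = 0.132).

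Most of the 2'-5' oligoadenylate synthetases, which make the messenger that activates the ribonuclease RNase L, rose in KO. Oas1a, Oas2, Oas3 and the relative Oasl2 rose, and Oasl1 did not pass. Oas1a read 3.91 and 3.88 in KO ENU, 1.50 and 1.42 in WT ENU, 2.68 and 2.62 in KO vehicle and 0.925 and 0.875 in WT vehicle, 2.67-fold higher in KO after ENU and 2.95-fold higher on vehicle. It rose by 1.49 ± 0.184 log2 (SE, limma adjusted p = 0.0156), and signal from its near copy Oas1g cannot be told apart from it. Oasl2 read 3.64 and 3.63 in KO ENU, 1.35 and 1.41 in WT ENU, 3.07 and 3.11 in KO vehicle and 0.968 and 0.967 in WT vehicle, again with no overlap between genotypes, and rose by 1.54 ± 0.194 log2 (SE, limma adjusted p = 0.016). Oas2 read 1.16 and 1.15 in KO ENU, 0.624 and 0.553 in WT ENU, 2.05 and 2.04 in KO vehicle and 0.961 and 0.949 in WT vehicle. Oas2 was the member lowest after ENU relative to vehicle in WT, yet KO lay above WT in both pairs, and it rose by 1.04 ± 0.183 log2 (SE, limma adjusted p = 0.0266). Oas3 was dim, at 0.198 and 0.178 in KO ENU, 0.0604 and 0.0873 in WT ENU, 0.145 and 0.133 in KO vehicle and 0.0494 and 0.0639 in WT vehicle, and was well above background on 1 of 2 WT vehicle arrays. It rose by 1.34 ± 0.181 log2 (SE, limma adjusted p = 0.0176), a call that was lost with normexp background correction at 0.37 log2 (limma adjusted p = 0.113).

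Usp18 and Ifi44, both strongly induced by type I interferon, and Ifi27l2a completed the members that rose. Usp18, the protease that removes Isg15 and dampens interferon signalling, read 6.96 and 6.82 in KO ENU, 3.33 and 3.38 in WT ENU, 3.40 and 3.46 in KO vehicle and 1.13 and 1.18 in WT vehicle. The WT ENU and KO vehicle samples were at about the same level, KO ENU was highest and WT vehicle lowest. It rose by 1.30 ± 0.225 log2 (SE, limma adjusted p = 0.0258). Ifi27l2a read 33.9 and 34.9 in KO ENU, 12.4 and 12.6 in WT ENU, 24.1 and 23.5 in KO vehicle and 8.42 and 8.42 in WT vehicle. All 3 of its probes lay between 1.46 and 1.77 log2 higher in KO in both pairs, and it rose by 1.48 ± 0.181 log2 (SE, limma adjusted p = 0.0154). Ifi44 read 1.17 and 1.15 in KO ENU, 0.645 and 0.685 in WT ENU, 0.954 and 1.07 in KO vehicle and 0.450 and 0.451 in WT vehicle, and rose by 0.98 ± 0.202 log2 (SE, limma adjusted p = 0.035).

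Ifitm3, a membrane protein that blocks the fusion of viruses with endosomes, was the 1 member that fell. It read 52.7 and 52.6 in KO ENU, 137 and 136 in WT ENU, 59.0 and 59.5 in KO vehicle and 96.4 and 94.4 in WT vehicle. KO was 2.60-fold lower after ENU and 1.61-fold lower on vehicle, and the change was -1.03 ± 0.251 log2 (SE, limma adjusted p = 0.0485). The call was lost in 8 of 15 alternatives, among them quantile normalization, which placed the vehicle difference at -0.03 log2. Its relative Ifitm2 was 1.75-fold lower in KO after ENU and 1.32-fold lower on vehicle, where quantile normalization gave 0.09 log2 (limma adjusted p = 0.095), and Ifitm1 differed by 0.28 ± 0.258 log2 (SE, limma adjusted p = 0.436). Differences of -0.58 ± 0.229 log2 for Mx2, -0.32 ± 0.189 log2 for Ifi35 and -0.04 ± 0.199 log2 for Ifi27 (SE) did not pass either. The 13 effectors without a call between genotypes ranged from -0.71 log2 for Bst2 to 0.97 log2 for Mx1. The Mx1 probe read 0.0527 and 0.0432 in KO ENU, 0.0277 and 0.0336 in WT ENU, 0.0318 and 0.0434 in KO vehicle and 0.0141 and 0.0162 in WT vehicle. It was not well above background on either WT vehicle array and on 1 of 2 WT ENU arrays, and since its signal lay under the lowest signal well above background there, no fold is given against WT vehicle, although it counts among the members at least 2-fold higher.

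**Figure D2:**
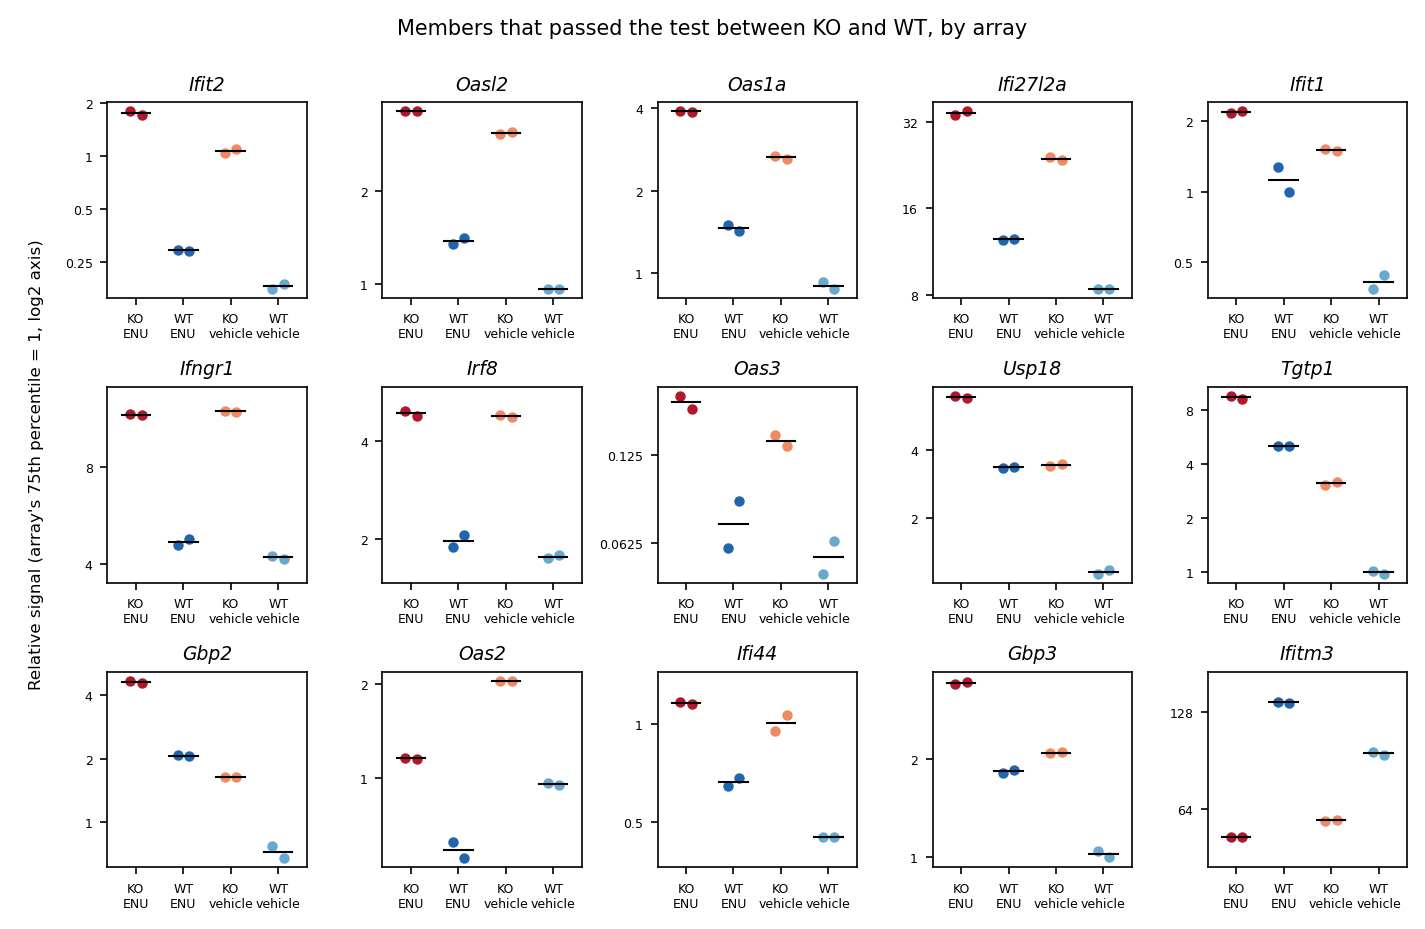
Relative signal on each array (points) and its group mean (lines; geometric mean of arrays a and b) for the 15 members that passed the limma test between KO and WT, on log2 axes that differ between panels. KO lies above WT within each treatment in 14 panels, and below it for Ifitm3.

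The start regions of several of these genes hold matches to the interferon motifs. Windows of 250 bases before to 50 after the start were given for 35 members by RefSeq (GRCm38.p6), with 42 windows in all. The ISRE core GAAANNGAA, searched on both strands (TTCNNTTTC on the other), was found in 20 of these 42 windows, or 47.6%, against 8.56% of all 32851 windows. The GAS motif TTCNNNGAA, which reads the same on both strands, was found in 12 windows, or 28.6%, against 8.3%. Among the 14 members that rose in KO, 11 had a window and 7 of these an ISRE core, and among the 29 that did not rise, 22 had a window and 12 an ISRE core. Shown here are the bases from -180 to -1 before the start of 5 members, chosen after their values were seen as examples of windows with ISRE cores alone (Ifit1 and Isg15), with both kinds of match (Oas1a and Tgtp1) and with GAS matches alone (Irf8), 5' to 3' on the gene's strand, with matches to either motif in capitals. Ifit1 lies at chr19:34640709-34640888 (+), Oas1a at chr5:120907526-120907705 (-), Isg15 at chr4:156200819-156200998 (-), Tgtp1 at chr11:48992247-48992426 (-) and Irf8 at chr8:120736178-120736357 (+).
Ifit1: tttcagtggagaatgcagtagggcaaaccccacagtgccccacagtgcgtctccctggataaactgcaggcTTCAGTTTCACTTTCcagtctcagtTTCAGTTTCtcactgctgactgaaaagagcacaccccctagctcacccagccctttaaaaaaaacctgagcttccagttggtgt
Oas1a: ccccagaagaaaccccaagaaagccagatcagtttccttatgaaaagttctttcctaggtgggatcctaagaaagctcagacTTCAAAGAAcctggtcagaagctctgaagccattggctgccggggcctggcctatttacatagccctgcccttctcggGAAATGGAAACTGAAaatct
Isg15: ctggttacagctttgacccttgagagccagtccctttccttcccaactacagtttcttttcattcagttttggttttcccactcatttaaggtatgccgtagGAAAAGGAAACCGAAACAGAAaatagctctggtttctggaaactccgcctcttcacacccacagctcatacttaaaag
Tgtp1: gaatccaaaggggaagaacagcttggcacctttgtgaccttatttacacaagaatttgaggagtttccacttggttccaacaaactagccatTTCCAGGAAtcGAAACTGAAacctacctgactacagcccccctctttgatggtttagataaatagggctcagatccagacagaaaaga
Irf8: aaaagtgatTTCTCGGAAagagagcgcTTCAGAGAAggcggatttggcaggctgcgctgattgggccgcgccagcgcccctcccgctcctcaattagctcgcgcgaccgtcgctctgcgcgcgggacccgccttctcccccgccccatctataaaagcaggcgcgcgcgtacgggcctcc
Ifit1 has ISRE cores beginning at -109, -103 and -84, all on the other strand. Isg15 has 3 overlapping cores at -78, -72 and -66, and Oas1a has 2 at -20 and -14 with a GAS match at -98. Tgtp1, a GTPase, has a GAS match at -88 followed by an ISRE core at -77. Irf8 has GAS matches at -171 and -153 and no ISRE core in its window. A match is a description of the letters, and Ifit2, which rose most, has no ISRE core in either of its windows.

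After ENU, interferon-induced genes were mostly higher than after vehicle in both genotypes, and none passed the test. Of the 43 members 38 had an average difference above 0 over KO and WT, with a median of 0.66 log2, against -0.05 over all genes. Limma called 0 of 18122 genes between ENU and vehicle in each direction (0% and 0%), with 3996 genes and 23 of the 43 members at an unadjusted p under 0.05. Other settings of the fit called 0 to 7 genes and 0 members. In KO, 10 members were at least 2-fold higher after ENU and 0 at least 2-fold lower, against 4.32% and 5.48% of all genes. In WT, 17 were at least 2-fold higher and 0 lower, against 7.14% and 5.59%. Since slide and ENU cannot be told apart, these differences may include the slide. Macrophage markers were higher after ENU in 9 of 9 cases by the average, with summed signals of 323 to 325 in KO ENU, 122 to 125 in WT ENU, 176 in KO vehicle and 75.5 to 76.9 in WT vehicle, and NK cell sums were 1.52 to 1.59 in KO ENU, 0.973 to 1.01 in WT ENU, 0.762 to 0.768 in KO vehicle and 0.385 to 0.478 in WT vehicle. Among the NK cell markers the average ENU difference was 1.69 log2 for Gzma, 1.88 for Gzmb and 0.70 for Klrd1. It was 0.01 for Klrb1c and -0.07 for Prf1. Sums of monocyte, neutrophil, T cell and B cell markers were higher after ENU in both genotypes as well, while plasmacytoid dendritic cell sums were lower in KO. The part of any of these cells in the members' differences was not tested.

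Of the 5 classes, GTPases had the largest median ENU difference, 1.03 log2 in KO and 1.53 in WT, and all 9 were higher after ENU in both genotypes. That held with quantile normalization, median centring and normexp. Ifi47, an immunity-related GTPase, read 10.1 and 9.93 in KO ENU, 12.9 and 12.6 in WT ENU, 3.14 and 3.16 in KO vehicle and 1.66 and 1.70 in WT vehicle. It was 3.18-fold higher after ENU in KO and 7.60-fold higher in WT, the largest ENU difference of any member in WT. Tgtp1, whose levels are given above, was 3.01-fold higher in KO and 5.03-fold higher in WT on the probe used, against 0.93 log2 in KO and 0.18 in WT on its other probe. Gbp2 was 2.84-fold higher in KO and 2.88-fold higher in WT, and Gbp4 was 2.23-fold higher in KO and 2.03-fold higher in WT. Gbp6, a larger guanylate-binding protein gene with close copies on the same chromosome, read 2.52 and 2.41 in KO ENU, 3.30 and 3.42 in WT ENU, 1.21 and 1.21 in KO vehicle and 0.476 and 0.482 in WT vehicle, 2.04-fold higher in KO and 7.02-fold higher in WT. Over the 4 samples the ENU difference was 2.30 ± 0.366 log2 (SE, limma adjusted p = 0.159) for Ifi47 and 1.52 ± 0.181 log2 (SE, limma adjusted p = 0.159) for Gbp2. The other GTPases had smaller differences, 1.72-fold in KO and 2.90-fold in WT for Igtp, 1.35-fold in KO and 2.33-fold in WT for Irgm1, 1.64-fold in KO and 1.80-fold in WT for Gbp3, and 1.21-fold in KO and 1.46-fold in WT for Iigp1.

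The effectors Rsad2, Usp18 and Rtp4 were at least 2-fold higher after ENU in both genotypes. Rsad2, the antiviral enzyme viperin, read 4.93 and 4.81 in KO ENU, 2.50 and 2.53 in WT ENU, 1.72 and 1.64 in KO vehicle and 1.22 and 1.22 in WT vehicle. All ENU arrays lay above the vehicle arrays of their genotype, 2.90-fold in KO and 2.06-fold in WT, and its other 2 probes gave 1.28 and 1.49 log2 in KO and 1.07 and 1.84 log2 in WT. Rtp4 read 15.0 and 15.0 in KO ENU, 10.8 and 10.7 in WT ENU, 6.69 and 6.88 in KO vehicle and 3.67 and 3.70 in WT vehicle, 2.21-fold higher in KO and 2.92-fold in WT. Usp18 was 2.01-fold higher in KO and 2.91-fold higher in WT. The average ENU difference had a limma adjusted p of 0.159 for each of these 3 genes, the lowest among members.

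On the probe used, no ligand, receptor, transcription factor or sensor among the members was at least 2-fold higher after ENU in both genotypes. Several were higher in both by smaller amounts in at least 1 genotype. Ifng was 2.30-fold higher after ENU in KO with no overlap of arrays, and in WT its arrays overlapped. The other Ifng probe, well above background on 2 of 8 arrays, was 0.58 log2 higher in KO and 0.60 higher in WT. In both genotypes Ifngr1 was within 1.11-fold of vehicle, Irf8 within 1.12-fold on the probe used and Stat2 within 1.11-fold. The other Irf8 probe, well above background on all 8 arrays, was 0.72 log2 higher after ENU in KO and 0.52 higher in WT. Irf7 was 1.97-fold higher after ENU in KO and 1.67-fold higher in WT, and Irf1 1.04-fold higher in KO and 1.41-fold higher in WT. The other Irf1 probe was 0.95 log2 higher in KO and 1.38 higher in WT. The other Irf9 probe was 1.13 log2 higher in KO and 1.29 higher in WT, against -0.13 in KO and 0.06 in WT on the probe used. For Irf1, Irf8 and Irf9 the probes thus disagreed. Among the sensors Ifih1 was 1.68-fold higher in KO and 2.01-fold in WT, Ddx58 1.19-fold in KO and 1.97-fold in WT, and Eif2ak2 1.34-fold in KO and 2.15-fold in WT. The other Ddx58 probes were 0.35, 0.71 and 0.88 log2 higher in KO, and 1.47, 1.81 and 2.22 higher in WT. Irf5 was level in KO at 1.01-fold and 2.25-fold higher in WT. Oas2 was lower after ENU in both, 1.77-fold in KO and 1.62-fold in WT.

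**Figure D3:**
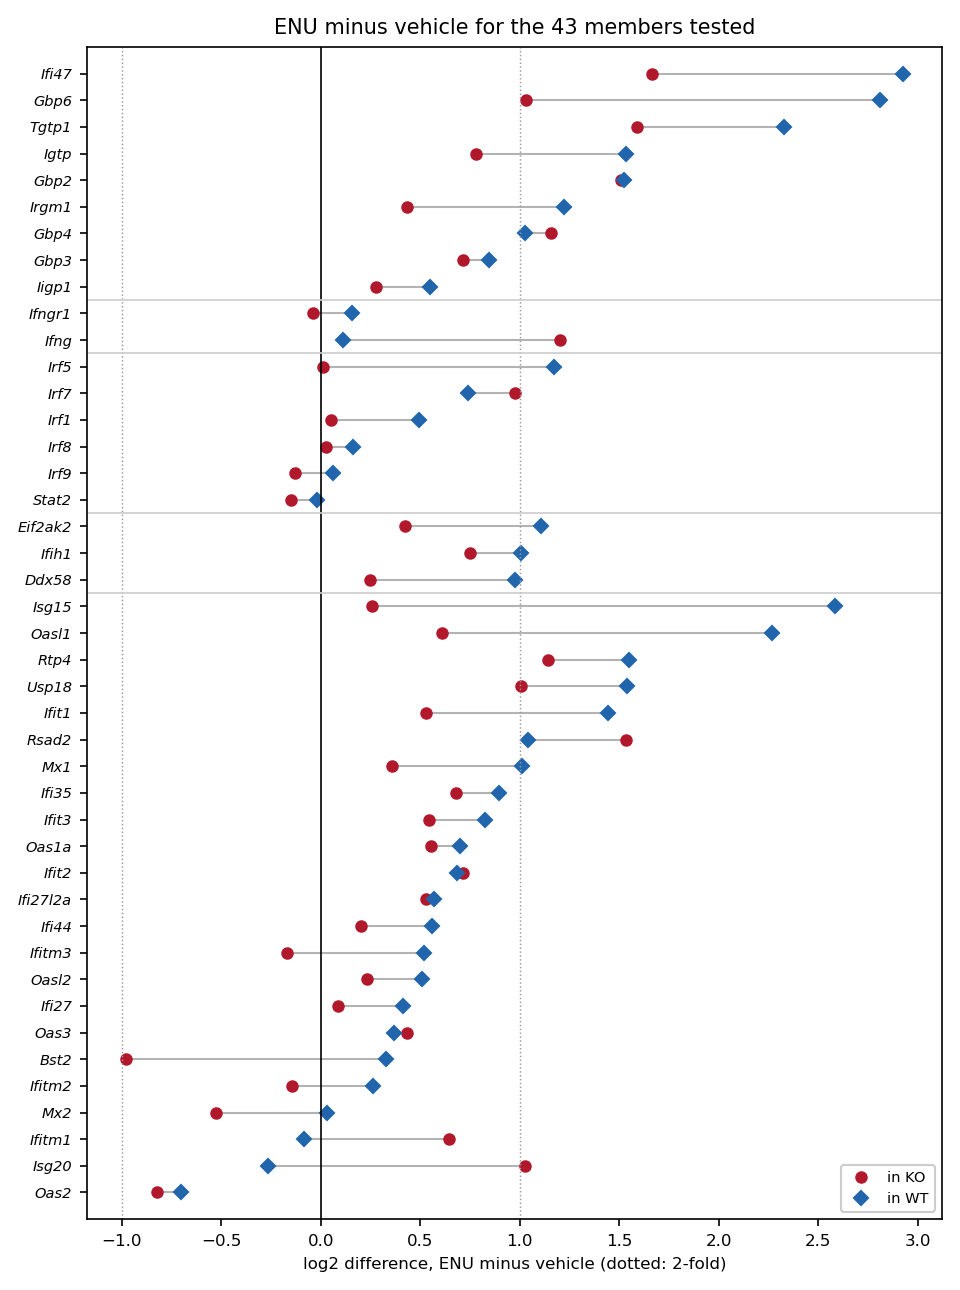
Log2 difference of ENU minus vehicle for the 43 members tested, in KO (circles) and in WT (diamonds), each 1 RNA sample against 1, in the same blocks as the plot of KO minus WT. All 9 GTPases lie right of 0 in both genotypes, and Isg15, Gbp6 and Oasl1 lie furthest right of their KO value in WT.

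For several members the ENU difference was not the same in KO and WT, which these data describe and do not test, since each group is 1 RNA sample. Of the 43 members 8 had ENU differences at least 2-fold apart between the genotypes, against 10.8% of all genes tested. The ENU difference in WT and the KO difference on vehicle share the WT vehicle sample. Isg15, a ubiquitin-like protein that is attached to other proteins after interferon, was furthest apart. It read 4.37 and 4.25 in KO ENU, 5.54 and 5.88 in WT ENU, 3.55 and 3.65 in KO vehicle and 0.976 and 0.929 in WT vehicle. WT vehicle was low and the other 3 samples high, so ENU minus vehicle was 0.26 log2 in KO and 2.58 in WT. The files place its only probe on chromosome 17 (mm7, 44534906 to 44534965), whereas RefSeq has the gene on chromosome 4, so the probe's identity rests on its accession.

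Gbp6 and Oasl1 followed the same order of samples. Oasl1, which in mice restrains the translation of Irf7, read 3.54 and 3.48 in KO ENU, 4.40 and 4.42 in WT ENU, 2.31 and 2.29 in KO vehicle and 0.919 and 0.912 in WT vehicle. WT ENU was highest and WT vehicle lowest in both genes, with KO vehicle between them. The gap of the ENU difference, KO minus WT, was -1.78 log2 for Gbp6, -1.66 for Oasl1 and -2.32 for Isg15, against a median absolute gap of 0.41 over members and 0.32 over all genes. Ifi47 had a gap of -1.26 log2.

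Bst2 and Isg20 differed in another way. Bst2, the tetherin that holds budding viruses at the cell surface, read 28.0 and 25.8 in KO ENU, 69.9 and 68.4 in WT ENU, 53.4 and 52.5 in KO vehicle and 55.1 and 54.9 in WT vehicle. KO ENU was the low sample, 1.97-fold under KO vehicle, while WT ENU was 1.26-fold above WT vehicle. Isg20, an exonuclease, read 1.29 and 1.27 in KO ENU, 0.463 and 0.506 in WT ENU, 0.636 and 0.622 in KO vehicle and 0.583 and 0.581 in WT vehicle. Here KO ENU was the high sample, 2.04-fold over KO vehicle, while WT ENU was 1.20-fold under WT vehicle. The second Isg20 probe gave 1.28 log2 in KO and -0.09 in WT.

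**Figure D4:**
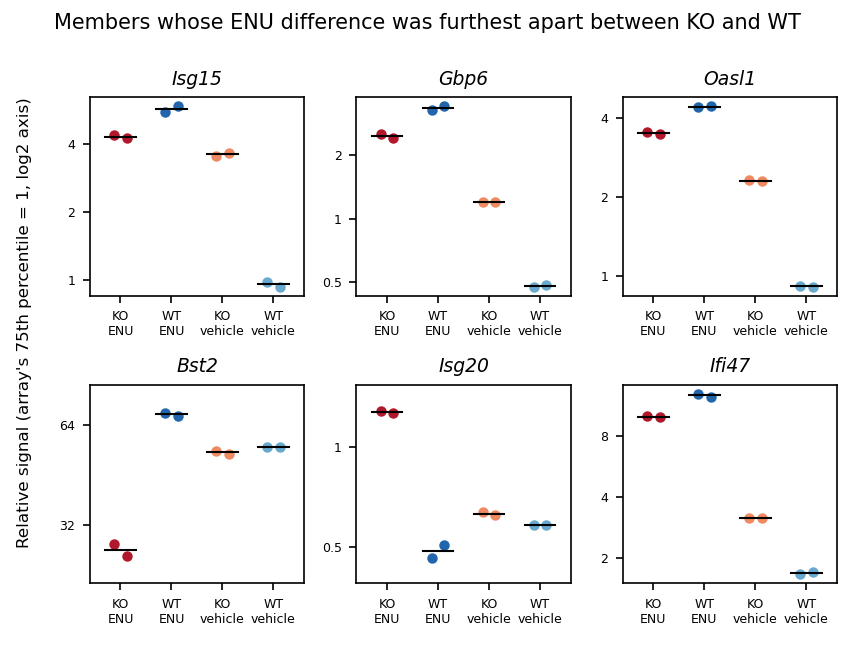
Relative signal on each array (points) and its group mean (lines) for the 6 members whose ENU difference was furthest apart between KO and WT, on log2 axes that differ between panels. WT vehicle is the lowest group for Isg15, Gbp6, Oasl1 and Ifi47, whereas KO ENU stands apart as lowest for Bst2 and highest for Isg20.

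Of 84 other genes listed for the interferon pathway, 73 were tested. In KO 24 of them rose and 4 fell, where 16.9% of all genes tested rose and 15.3% fell. Their median difference was 0.69 log2 on vehicle and 0.45 after ENU, against -0.14 and -0.10 over all genes tested. The type I interferon genes Ifnb1, Ifna2 and Ifna4 were not well above background on both arrays of any group. Among 15 signalling genes 3 rose and 2 fell, which is near the shares over all genes. Ifnlr1, the receptor chain for interferon lambda, read 1.04 and 1.11 in KO ENU, 0.0650 and 0.0592 in WT ENU, 1.16 and 1.13 in KO vehicle and 0.0150 and 0.00988 in WT vehicle. It was higher in KO by 17.3-fold after ENU and by at least 20.3-fold on vehicle, since no WT vehicle array was well above background. It rose (limma adjusted p = 0.0151), in a fit that used those WT vehicle signals as read. Il10rb, the shared chain of that receptor, rose by 2.04 ± 0.193 log2 (SE, limma adjusted p = 0.0114), and Ifnar2, a chain of the type I receptor, and the repressor Irf2 fell, with changes of -0.75 ± 0.181 log2 and -0.89 ± 0.214 log2 (SE, limma adjusted p = 0.0477 and 0.047).

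Of 12 sensing genes 5 rose and 2 fell. Those that fell were Mavs, the mitochondrial adaptor of the RNA sensors, at -1.13 ± 0.181 log2 (SE, limma adjusted p = 0.0228), and Tlr9, a receptor for DNA, at -1.29 ± 0.222 log2 (SE, limma adjusted p = 0.0255). Of 46 other induced genes 16 rose and 0 fell, beside the same shares over all genes. Cxcl10, a chemokine induced by interferon gamma, read 13.6 and 13.4 in KO ENU, 2.22 and 2.37 in WT ENU, 7.65 and 7.71 in KO vehicle and 0.749 and 0.730 in WT vehicle and rose by 2.97 ± 0.274 log2 (SE, limma adjusted p = 0.0113). Ciita, the activator of MHC class II genes, rose by 1.97 ± 0.182 log2, and Slfn2 by 1.75 ± 0.182 log2 (SE, limma adjusted p = 0.0113 and 0.0126). Slfn4, a gene of myeloid cells, was dim, at 0.0691 and 0.0761 in KO ENU, 0.0149 and 0.00939 in WT ENU, 0.0792 and 0.0823 in KO vehicle and 0.0165 and 0.0115 in WT vehicle, and no WT array was well above background. It was at least 1.97-fold higher in KO after ENU and at least 1.43-fold higher on vehicle. It counted as risen (limma adjusted p = 0.00987), but that fit used WT signals that were not well above background. It also passed the filter through the KO groups alone, so the bounds are the firmer description. Between ENU and vehicle limma called 0 of the 73 in either direction, and their median difference was 0.27 log2 in KO and 0.37 in WT.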

How the data were processed

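RNA of 4 groups of livers was hybridised to 8 one-colour Agilent mouse arrays. The deposited values are spot intensity from Agilent Feature Extraction, version 10.7.1.1 per the file headers and 10.5.1 per the submitters' processing notes. The program had already subtracted background from the processed signal used here, while raw mean and local background signals served for normexp. Here each processed signal was divided by the array's 75th percentile and taken to log2. Spots of controls and flagged outliers were dropped and replicate spots averaged. A probe was kept if it was well above background on both arrays of at least 1 group, and each gene was represented by its brightest probe. The number of arrays limits the precision. The 75th percentile was 436.5 to 681 in signal units, and 54.7% to 69.3% of spots were well above background.

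Probes were named through RefSeq (GRCm38.p6): 22951 through the accession, 4520 through another probe of that name, 3228 through the symbol and 2081 through a synonym, while 8394 kept the file's name. Probe coordinates are those of the files (mm7). Limma 3.58.1 in R 4.3.3 fitted genotype and treatment to the 4 RNA samples, with 1 residual degree of freedom. Benjamini-Hochberg adjustment was over 18122 genes. On simulated data with 200 genes changed, the genotype term recovered 0% of changes of 1 log2, 22% of 2, 90% of 4 and 100% of 8. A gene that did not pass may therefore still differ. For a gene with every probe too dim to stand well above background in a group, a fold is a bound, taken against that group's lowest signal that did or the gene's own signal, whichever was higher. Single pairs were described by a 2-fold difference, with no test.

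Full values were given for members past an adjusted p of 0.05, members 2-fold apart in both pairs of a contrast, the 6 with the largest gap between ENU differences, and the ligand, receptor, Stat2 and Irf members, and of other pathway genes up to 6 per direction. The members and gene lists were chosen with earlier results of these data known. Alternatives covered background correction, scaling, the filter, the probes of a gene, single arrays and the variance model.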

Additional observations from a re-analysis of the deposited data

Results flagged for a closer look

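In 17 members the arrays of the 2 groups moved in opposite directions under the same contrast, which marked them for a closer look. The difference between those effects was not tested, since each group is 1 RNA sample. Each value below is the ENU difference in KO minus that in WT, in log2 units, which equals the KO difference after ENU minus that on vehicle. Its median absolute size over all genes tested was 0.32. Arrays a and b of a group lay close, with a median difference of 0.03 log2 over members, so small differences also met this rule. The share of all genes that met it was not counted.

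KO arrays lay below WT arrays after ENU and above them on vehicle for Isg15 (-2.32), Gbp6 (-1.78), Oasl1 (-1.66), Ifi47 (-1.26), Irf5 (-1.16), Irgm1 (-0.79), Igtp (-0.76), Ifi27 (-0.33), Ifih1 (-0.26) and Irf9 (-0.20). With quantile normalization KO was higher than WT after ENU in 5 of these 10, by 0.42 log2 for Ifi27, 0.28 for Igtp, 0.08 for Ifi47, 0.08 for Ifih1 and 0.07 for Irf9. For Isg15, Gbp6, Oasl1, Irf5 and Irgm1 it was lower there too. KO arrays lay above WT arrays after ENU and below them on vehicle for Ifitm1 (0.73) and Irf7 (0.24).

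ENU arrays lay above vehicle arrays in KO and below them in WT for Isg20 (1.29). They lay below vehicle arrays in KO and above them in WT for Bst2 (-1.31), Ifitm3 (-0.69), Ifitm2 (-0.41), Ifngr1 (-0.19) and Irf9 (-0.20). Quantile normalization gave ENU minus vehicle in KO of -0.83 log2 for Bst2, 0.03 for Ifitm3, 0.07 for Ifngr1, -0.05 for Ifitm2 and -0.12 for Irf9.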

How the results depend on the processing

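Values were recomputed with normexp background correction, quantile normalization, median centring, no filter on dim probes, a filter requiring every array to be well above background, the mean of all probes of a gene, limma with trend and robust variance, and without each array in turn. The 14 members that rose in KO became 14 to 17 under these settings and 14 or 15 without single arrays. The 1 that fell became 2 with normexp, 0 with quantile normalization, 3 with median centring, 0 without a filter, 2 with the stricter filter, 2 with trend and robust variance, and 0 to 1 without single arrays. No setting called a member between ENU and vehicle. In single pairs, normexp gave 6 members at least 2-fold higher after ENU in KO and 1 lower. After ENU the members at least 2-fold lower in KO numbered 0 with quantile normalization and 5 with median centring. Without single arrays, members at least 2-fold lower after ENU numbered 0 to 1 in KO and 0 to 1 in WT. With normexp Mx1 was -0.23 log2 in KO against WT on vehicle and -0.12 for ENU in WT, opposite to its sign without it. The causes were not tested. Of 1284 values of single members over both averages, 1254 kept direction and side of the threshold, 20 came to pass it and 10 ceased to. No paired analysis was possible because averaging arrays into 1 RNA sample left no array letters to pair, and the fit itself already compares KO with WT within each treatment. Dim probes limit Ifng, Mx1 and Oas3.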
